A study of Mus musculus with 7 samples.

Results

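The genes described here are the insulin receptor, its substrates, the Akt kinases and the core of mTOR signalling, 10 genes of the 12239 in the deposited expression table: *Insr*, *Irs1*, *Irs2*, *Akt1*, *Akt2*, *Mtor*, *Rptor*, *Tsc1*, *Tsc2* and *Deptor*. They were chosen by symbol alone, and all 10 were found. RNA had been sequenced from the tibialis anterior (TA) muscle, which lifts the foot and is rich in fast-twitch fibres, of male FVBN mice aged 5 to 6 months. The wild-type group (WT) held 4 libraries. The knockout group (C2-/-) held 3 libraries from mice in which a Neo cassette flanked by LoxP sites replaced exons 2 to 22 of *Mybpc2*, the gene of fast skeletal myosin-binding protein C. The deletion is carried by every cell of the animal and not by muscle fibres alone. The series text gives 4 animals for each group, and 3 C2-/- libraries were analysed here. The samples of a group were taken as separate animals from their titles, and the p-values measure the spread between them.

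Insulin binding switches on the kinase of its receptor, which phosphorylates the substrate proteins Irs1 and Irs2. These recruit phosphoinositide 3-kinase (PI3K), whose lipid product brings Akt to the membrane, and Akt in turn releases glucose transporter vesicles, restrains glycogen synthase kinase and FoxO factors, and inactivates the Tsc1-Tsc2 complex. The loss of Tsc1-Tsc2 activity leaves the small GTPase Rheb free to switch on mTOR complex 1, which drives protein synthesis and restrains autophagy, and in skeletal muscle this route links feeding and insulin to glucose uptake and fibre size. Most of this control is exerted by phosphorylation, which messenger RNA levels do not measure.

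The start regions of *Irs1* and *Irs2* are shown because these substrate genes moved furthest in opposite directions. The first of 2 start regions of *Akt1* is shown because it held the FoxO-type motif, a sequence bound by factors that Akt restrains. Each runs from 250 bases before to 50 bases after a RefSeq transcript start (GRCm38.p6, minus strand in all 3), written 5′ to 3′. Capitals mark matches to GGGCGG (the GC box of Sp1-type factors), CACGTG (the E-box of bHLH factors) or GTAAACA (the FoxO core), each searched on both strands.
Irs1, chr1:82291390-82291689: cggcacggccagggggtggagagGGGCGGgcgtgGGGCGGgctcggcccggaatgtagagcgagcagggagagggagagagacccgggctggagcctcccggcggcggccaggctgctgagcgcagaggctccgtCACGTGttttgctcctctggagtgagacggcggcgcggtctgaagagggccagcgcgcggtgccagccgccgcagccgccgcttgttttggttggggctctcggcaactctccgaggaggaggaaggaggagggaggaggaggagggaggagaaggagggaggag
Irs2, chr8:11008880-11009179: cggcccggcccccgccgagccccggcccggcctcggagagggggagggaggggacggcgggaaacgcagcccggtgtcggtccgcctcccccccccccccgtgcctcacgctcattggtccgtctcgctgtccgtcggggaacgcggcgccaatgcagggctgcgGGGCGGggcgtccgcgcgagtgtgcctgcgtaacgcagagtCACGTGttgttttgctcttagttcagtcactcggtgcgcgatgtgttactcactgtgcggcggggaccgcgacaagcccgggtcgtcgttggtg
Akt1, first of 2 starts, chr12:112674835-112675134: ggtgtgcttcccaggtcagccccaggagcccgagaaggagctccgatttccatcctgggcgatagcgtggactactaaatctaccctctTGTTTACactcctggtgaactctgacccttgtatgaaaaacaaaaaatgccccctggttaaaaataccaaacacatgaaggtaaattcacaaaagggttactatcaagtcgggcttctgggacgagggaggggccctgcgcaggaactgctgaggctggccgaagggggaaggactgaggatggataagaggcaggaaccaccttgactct

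The *Irs1* window held 2 GC boxes and 1 E-box with a GC content of 71.3%, and the *Irs2* window held 1 GC box and 1 E-box with a GC content of 72.0%. The start regions of both substrates thus carried the same CACGTG word, which 7.15% of the 32851 mouse promoters in the RefSeq table hold, while the GC box is in 35.7% of them. The *Akt1* window shown held 1 match to the FoxO core, in capitals as TGTTTAC, which 3.65% of promoters hold. Its GC content of 52.3% was close to the median of all promoters (52.7%). The second *Akt1* window, not shown, held 5 GC boxes and no FoxO core, with a GC content of 79.7%. RefSeq promoters were matched for 8 of the 10 genes, 12 windows in all, and not for *Insr* and *Deptor*. These matches describe the letters in a window only.

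Levels are on the log2 CPM scale (counts per 1e6 reads, scaled by the authors). A change is the C2-/- mean less the WT mean on that scale, given with limma's standard error (SE) and its p adjusted by the Benjamini-Hochberg method. To pass the threshold, a gene needed an adjusted p below 0.05 together with a fold over 1.5 either way. *Mybpc2* fell from log2 values of 12.41 to 12.85 in WT to -0.47 to 1.67 in C2-/-, so the libraries bore out their genotype labels. The libraries stood apart in depth. WT replicates 1 to 3 held 14929214 to 15464499 reads in the table, WT replicate 4 held 4683853, and the C2-/- libraries held 2613277 to 4917936. They also differed by base composition, since GC content of the transcript accounted for 33.6 to 37.8% of the variance between genes in each C2-/- library set against the deep WT libraries, for 9.5% in WT replicate 4 and for 0.8 to 3.3% in the other WT libraries. Over the 12171 genes with a GC value, the median change ran from 1.12 in the decile poorest in GC to -1.73 in the richest decile. GC dependence moved with genotype, as did depth in all libraries but WT replicate 4, and cannot be told apart from it here. The core genes and the named pathway genes are therefore also given with the GC curve of each library removed ("GC-corrected") and against WT replicate 4, whose depth was nearest to that of the knockouts. Both fits ran over all genes, the corrected fit over those with a GC value. The comparison with WT replicate 4 rests on a single WT library. Its p-values take their error from the deep WT and the C2-/- libraries and measure no spread between WT animals at that depth.

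Of the 10 genes, 6 passed the threshold, 1 higher in C2-/- (*Irs1*) and 5 lower (*Irs2*, *Akt1*, *Akt2*, *Rptor* and *Tsc2*). Of all genes tested, 45.2% passed it, 20.2% higher and 25% lower, and the median change was -0.46 over the 10 genes and -0.14 over all genes. In whole muscle, fewer cells of a type and less RNA per cell cannot be told apart in any of these changes. In 6 of the 10 genes the C2-/- libraries did not overlap the WT libraries, 2 of them above (*Insr* and *Irs1*) and 4 below (*Irs2*, *Akt1*, *Akt2* and *Tsc2*), against 49.3% of all genes (22.6% above and 26.7% below). After GC correction 20.6% of all genes passed (12.3% higher, 8.32% lower), and so did 2 of the 10 genes, *Irs1* and *Mtor*, both higher. No core gene was lower by limma after the correction, with 0 also at an unadjusted p under 0.05, and no other tool was run on the corrected values. Against WT replicate 4 alone, 17% of all genes passed, 8.73% higher and 8.25% lower, and 2 of the 10 did, *Irs1* higher and *Akt1* lower. *Irs1* was the core gene that passed in all 3 fits.

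**Figure D1:**
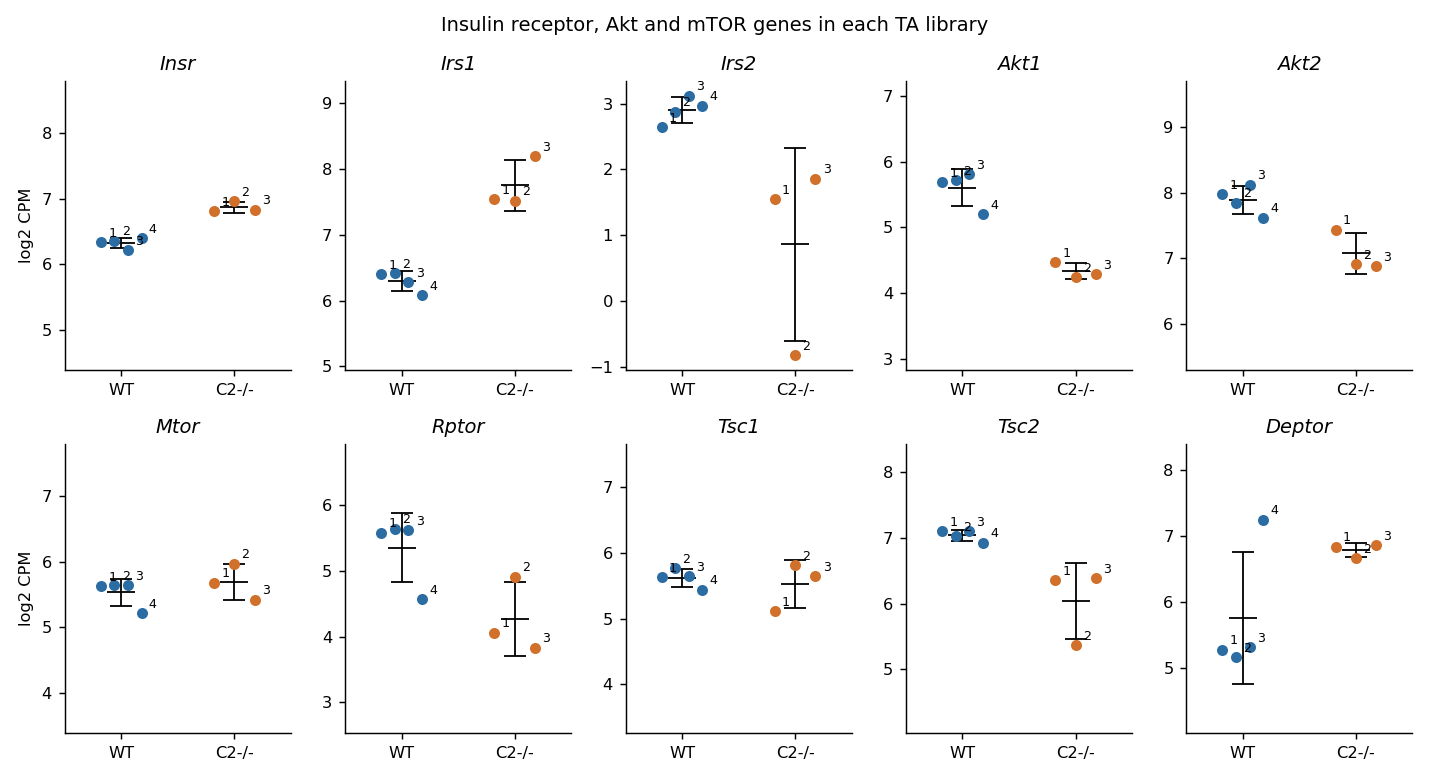
Log2 CPM of the 10 core genes in each TA library, 1 panel per gene with a vertical span of the same size, WT (blue, n = 4) and C2-/- (orange, n = 3); numbers are replicates, the long bar is the mean and the whiskers are 1 SD. *Irs1* lies higher in every C2-/- library, *Irs2*, *Akt1*, *Akt2* and *Tsc2* lie lower in every one, and WT replicate 4 stands apart from the other WT libraries for *Deptor*, *Rptor* and *Mtor*.

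*Insr* encodes the insulin receptor, the tyrosine kinase at the head of the pathway. In WT replicates 1 to 4 it stood at 6.34, 6.36, 6.22 and 6.40 (log2 values), and at 6.81, 6.96 and 6.83 in C2-/- replicates 1 to 3. Every C2-/- value lay above every WT value, with little spread in either group. The change was 0.54 (SE 0.15, limma adjusted p = 0.0138), a 1.46-fold difference that stayed under the fold minimum. It was 0.47 against WT replicate 4 and 0.24 after GC correction (limma adjusted p = 0.249). With median centring, which adds about as much to every gene as it moves the median of all genes (from -0.14 to 0.02), *Insr* stood at 0.70 and passed.

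*Irs1* encodes the substrate that carries much of the insulin signal in muscle. Its log2 values were 6.40, 6.42, 6.28 and 6.08 in WT and 7.54, 7.52 and 8.20 in C2-/-, from 297 reads in the lowest WT library to 1421 in the highest C2-/- library. The groups were separated by over 1 log2 unit, and C2-/- replicate 3 was the highest. The change was 1.46 (SE 0.20, limma adjusted p = 0.000666), a 2.75-fold rise, and 92.4% of all genes had a lower change. *Irs1* passed under all 16 alternative settings and with each of the 7 libraries left out in turn, with changes of 1.23 to 1.69. It was 1.67 against WT replicate 4 (limma adjusted p = 0.00979) and 1.69 after GC correction (limma adjusted p = 0.00112). The transcript has a GC content of 50.3%, where the median change of all genes in its GC decile was -0.35. The predicted gene *Gm9747* on the opposite strand covers 30.86% of its 9144 exonic bases. Since it is not given whether reads were counted by strand, reads from the 2 genes may not be told apart over that stretch. Opposite-strand models cover far less of *Deptor* (3.41%), *Irs2* (2.56%) and *Rptor* (0.62%).

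*Irs2* encodes the second substrate, prominent in liver and beta cells. It was the lowest of the core genes, with log2 values of 2.64, 2.88, 3.12 and 2.97 in WT and 1.55, -0.83 and 1.86 in C2-/-. These rest on 95, 110, 133 and 34 reads in WT and on 8, 1 and 17 reads in C2-/-. All 3 C2-/- libraries lay below the WT libraries, and replicate 2, with its single read, lay far below the others. The change was -2.05 (SE 0.63, limma adjusted p = 0.0235), 4.13-fold lower. Leaving out WT replicate 2 or 3 raised the limma adjusted p to 0.057 and 0.0629, and leaving out C2-/- replicate 2 gave a change of -1.20, which still passed. Against WT replicate 4 the change was -2.12 (limma adjusted p = 0.172), and after GC correction it was -0.78 (limma adjusted p = 0.355). With a GC content of 56.6%, *Irs2* belongs to a GC decile whose median change was -1.28.

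The Akt kinases carry the signal onward. *Akt1*, the broadly expressed form, had log2 values of 5.69, 5.72, 5.81 and 5.20 in WT and 4.47, 4.24 and 4.29 in C2-/-. The groups did not overlap, and WT replicate 4 was the WT library nearest to the knockouts. The change was -1.27 (SE 0.21, limma adjusted p = 0.00156), 2.41-fold lower, and -0.87 against WT replicate 4 (limma adjusted p = 0.0346). After GC correction its sign turned, to 0.39 (limma adjusted p = 0.171). *Akt1* had the highest GC content of the 10 genes, 59.7%, in a decile of genes whose median change was -1.73.

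*Akt2*, the form most tied to glucose uptake in muscle, had log2 values of 7.98, 7.85, 8.12 and 7.62 in WT and 7.44, 6.91 and 6.88 in C2-/-. Again no knockout value reached the WT range. The change was -0.82 (SE 0.19, limma adjusted p = 0.00692), 1.76-fold lower. It was -0.54 against WT replicate 4 (limma adjusted p = 0.151) and turned to 0.25 after GC correction (limma adjusted p = 0.222). *Akt2* lies on chromosome 7, as *Mybpc2* does, 16.9 Mb away.

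*Mtor* encodes the kinase shared by both mTOR complexes. Its log2 values were 5.63, 5.64, 5.64 and 5.22 in WT and 5.68, 5.97 and 5.42 in C2-/-. The groups overlapped, since C2-/- replicate 3 lay below WT replicates 1 to 3, and WT replicate 4 lay lowest of all 7 libraries. The change was 0.16 (SE 0.20, limma adjusted p = 0.539). After GC correction it was 1.05 (SE 0.21, limma adjusted p = 0.00799), which passed, with corrected values of 5.06 to 5.20 in WT and 5.94, 6.69 and 5.97 in C2-/-. Genes of its GC decile had a median change of -1.01, so the uncorrected change of *Mtor* lay above that of most transcripts of like GC content. It was 0.47 against WT replicate 4.

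*Rptor* encodes raptor, the scaffold that brings substrates to mTOR complex 1. It had log2 values of 5.58, 5.64, 5.62 and 4.57 in WT and 4.06, 4.91 and 3.83 in C2-/-. WT replicate 4 fell among the knockouts, so the groups overlapped. The change was -1.09 (SE 0.34, limma adjusted p = 0.0259), 2.12-fold lower, and among the 6 core genes that passed it lost its call most often when a library was left out. It was lost with WT replicate 1, 2 or 3 left out (limma adjusted p = 0.0672 to 0.0719) and with C2-/- replicate 1 or 3 left out (limma adjusted p = 0.08 and 0.0965). The change was -0.30 against WT replicate 4 (limma adjusted p = 0.607) and 0.17 after GC correction (limma adjusted p = 0.764).

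*Deptor* encodes an inhibitory partner of mTOR in both complexes. Its log2 values were 5.27, 5.16, 5.31 and 7.25 in WT and 6.84, 6.66 and 6.86 in C2-/-. The knockouts lay above WT replicates 1 to 3 and below WT replicate 4, which was the highest of all 7 libraries. The change was 1.04 (SE 0.44, limma adjusted p = 0.0773) and did not pass. It passed with limma-voom on reads (1.17, adjusted p = 0.0251) and with library weights (1.53, limma adjusted p = 0.000887). Those weights were 0.222 for WT replicate 4 and 3.74 to 5.71 for the other WT libraries. Without WT replicate 4 the change was 1.54 (SE 0.13, limma adjusted p = 8.33e-05), and it was 0.88 with GC correction added (limma adjusted p = 0.00233). Against WT replicate 4 alone the direction turned, to -0.47. Over all 7 libraries the GC-corrected change was 0.43 (limma adjusted p = 0.472). With any library other than WT replicate 4 left out, the uncorrected change stayed at 0.84 to 1.10. The same library had the highest level of the adipocyte marker *Fabp4* in WT, 8.48, where the other WT libraries had 7.28 to 7.39, and C2-/- had 8.85 to 9.30. Its part in the *Deptor* values was not tested.

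*Tsc1* and *Tsc2* encode hamartin and tuberin, the complex that holds Rheb and thereby mTOR complex 1 in check. *Tsc1* had log2 values of 5.63, 5.77, 5.64 and 5.44 in WT and 5.11, 5.81 and 5.64 in C2-/-. The ranges overlapped, with C2-/- replicate 1 lowest and replicate 2 highest, and the change was -0.10 (SE 0.21, limma adjusted p = 0.724), a direction that turned with median centring (0.06) and after GC correction (0.36), and that was 0.08 against WT replicate 4.

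*Tsc2* had log2 values of 7.10, 7.03, 7.10 and 6.93 in WT and 6.36, 5.37 and 6.39 in C2-/-. All C2-/- values lay below the narrow WT range, replicate 2 by the most. The change was -1.0 (SE 0.24, limma adjusted p = 0.00843), 2.00-fold lower, and -0.66 without C2-/- replicate 2, where it still passed. It was -0.89 against WT replicate 4 (limma adjusted p = 0.128) and -0.02 after GC correction (limma adjusted p = 0.946). The neighbouring gene *Pkd1* on the opposite strand covers 7.20% of the exonic bases of *Tsc2*, and its own change was -1.71 (SE 0.26, limma adjusted p = 0.00101).

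**Figure D2:**
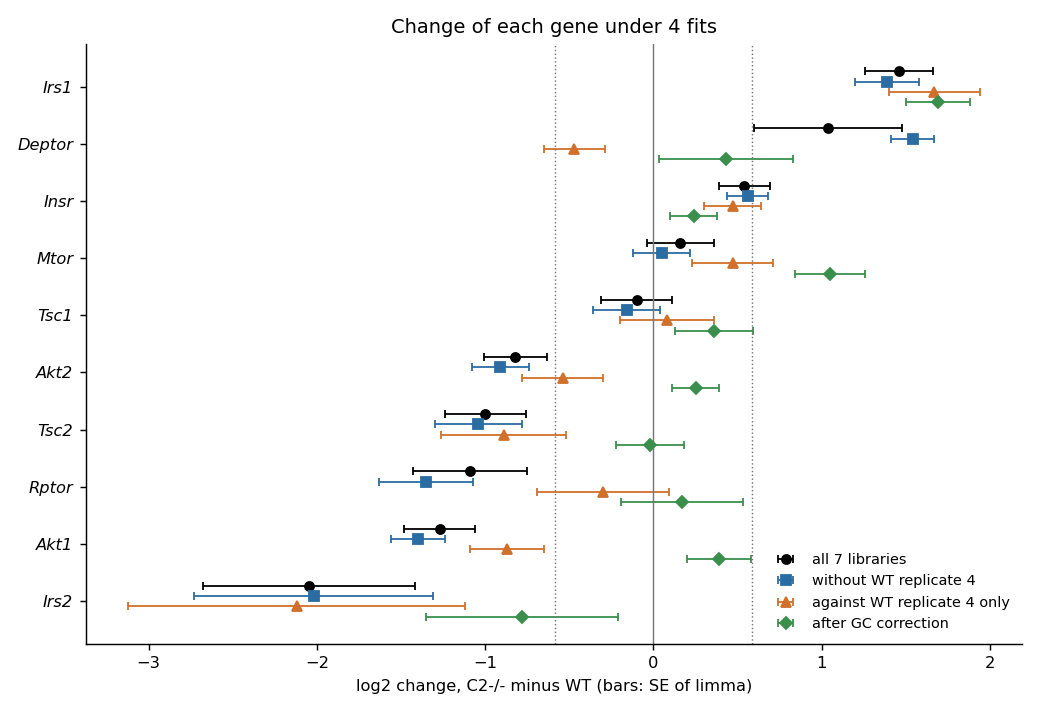
Log2 change (C2-/- minus WT) of each core gene with the SE of limma under 4 fits: all 7 libraries, without WT replicate 4, against WT replicate 4 only, and after GC correction; dotted lines mark the fold minimum of 1.5. *Irs1* stays between 1.39 and 1.69 in the 4 fits, *Akt1*, *Akt2* and *Rptor* cross 0 after GC correction, and *Deptor* lies at 1.54 or -0.47 according to whether WT replicate 4 is left out or is the sole WT library.

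The changes of the 10 genes followed the GC content of their transcripts. Spearman's rho between the change and GC content was -0.93 over the 10 genes and -0.84 over 83 further genes of the pathway, against -0.68 over all genes. Genes of the same libraries are not independent, so these are descriptions. *Deptor* (44.3% GC) and *Insr* (46.8%) lay at the low end with changes above 0, and *Akt1*, *Irs2*, *Rptor* and *Akt2*, all above 55% GC, lay at the other end with changes below 0. *Irs1* and *Mtor* stood furthest above the course of other genes at their GC content. The GC decile of *Mtor* (54.2%) had a median change of -1.01 while *Mtor* itself was at 0.16, and the decile of *Irs1* had -0.35 while *Irs1* was at 1.46. *Rptor* and *Tsc2* differed from the medians of their deciles (-1.28 and -1.01) by less than their own SE.

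**Figure D3:**
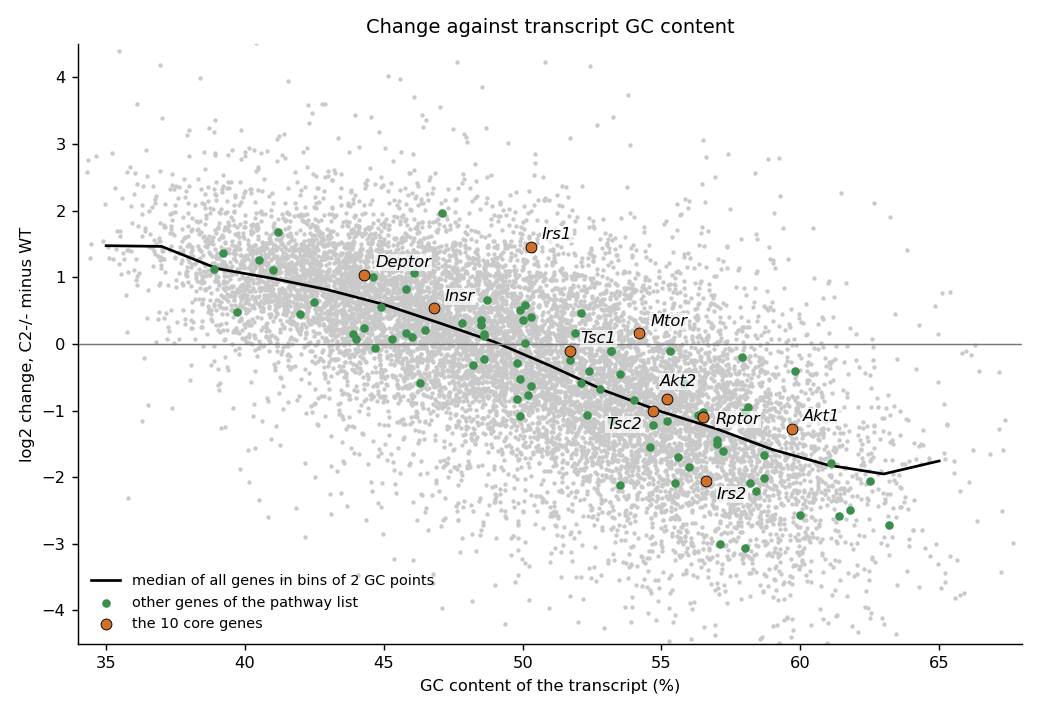
Log2 change (C2-/- minus WT) of each gene against the GC content of its transcript in percent, for all genes (grey), the other genes of the pathway list (green) and the 10 core genes (orange, named), with the median of all genes in bins of GC content as a line; 38 genes lie beyond the axes. The line falls from left to right, most core genes lie near it, and *Irs1* and *Mtor* lie above it.

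Differences between paralogs or partners within a library do not change when a library is scaled by a single factor. Differences of 5 pairs were compared between the groups with an exact permutation test (two-sided) of all 35 assignments of the libraries to groups of 4 and 3, which cannot give a p below 0.0286, and the p-values were adjusted over the 5 pairs. The insulin receptor substrates moved apart. *Irs2* minus *Irs1* was -3.77, -3.53, -3.16 and -3.11 in WT and -5.99, -8.35 and -6.34 in C2-/-. No knockout library came within 2 log2 units of the WT range, and the groups differed by -3.50 (exact permutation p = 0.0286, adjusted p = 0.0357). After GC correction the difference was -2.47 and the groups still did not overlap (exact permutation p = 0.0286, adjusted p = 0.143). Against WT replicate 4 it was -3.79.

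*Akt2* minus *Akt1* was 2.29, 2.13, 2.31 and 2.42 in WT and 2.96, 2.67 and 2.59 in C2-/-. The share of *Akt2* relative to *Akt1* was thus higher in each knockout, by 0.45 (exact permutation p = 0.0286, adjusted p = 0.0357), and the difference was -0.14 after GC correction (exact permutation p = 0.371). *Tsc2* minus *Tsc1* was 1.47, 1.27, 1.47 and 1.49 in WT and 1.25, -0.44 and 0.75 in C2-/-. All knockouts lay lower, replicate 1 by little and replicate 2 by most, with a difference of -0.90 (exact permutation p = 0.0286, adjusted p = 0.0357) that was -0.43 without C2-/- replicate 2 and -0.38 after GC correction (exact permutation p = 0.457).

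*Rptor* minus *Mtor*, the scaffold of complex 1 against its kinase, was -0.05, 0.00, -0.03 and -0.65 in WT and -1.62, -1.06 and -1.59 in C2-/-. WT replicate 4 lay between the other WT libraries and the knockouts. The groups differed by -1.24 (exact permutation p = 0.0286, adjusted p = 0.0357), by -0.78 against WT replicate 4 and by -0.88 after GC correction (exact permutation p = 0.0571). *Deptor* minus *Mtor* was -0.36, -0.48, -0.33 and 2.04 in WT and 1.16, 0.69 and 1.44 in C2-/-. The groups overlapped through WT replicate 4, and the difference of 0.88 (exact permutation p = 0.229) was 1.49 without that library and -0.94 against it. After GC correction its sign turned, to -0.62 (exact permutation p = 0.543).

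**Figure D4:**
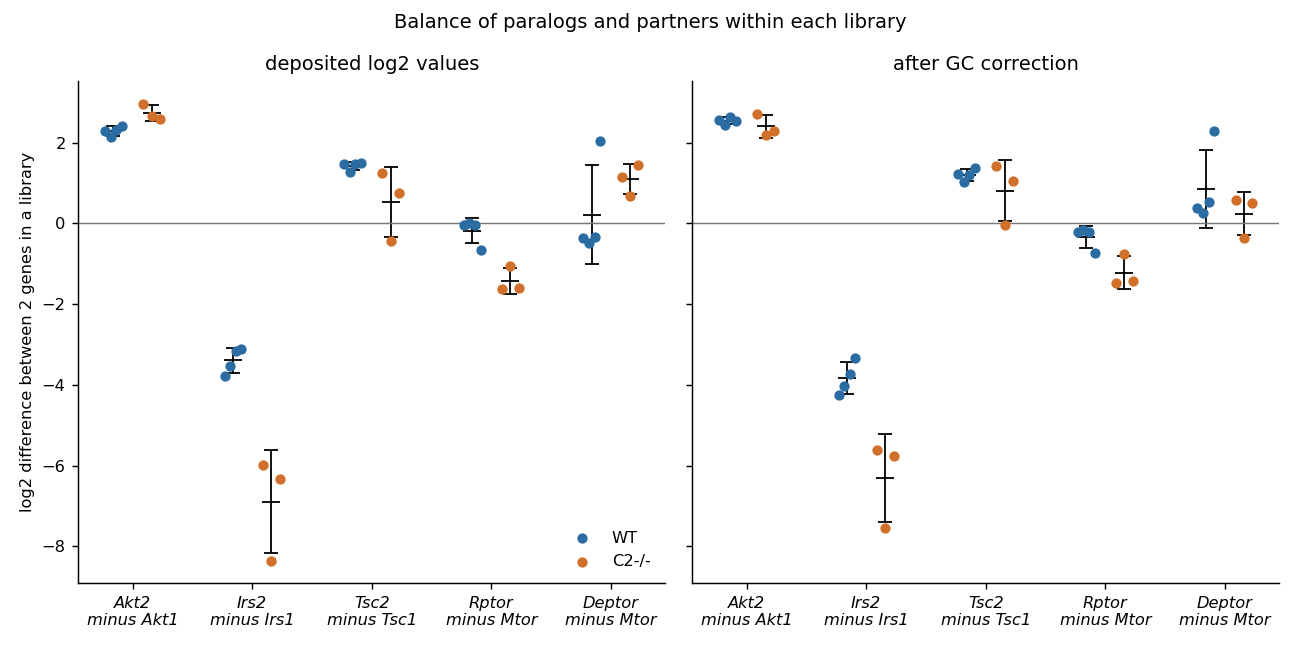
Log2 difference between 2 genes of the same library for 5 pairs, from the deposited values (left) and after GC correction (right), WT in blue (n = 4) and C2-/- in orange (n = 3), with mean and SD. *Irs2* minus *Irs1* is lower in all C2-/- libraries in both panels (difference between groups -3.50 and -2.47), while *Akt2* minus *Akt1* and *Tsc2* minus *Tsc1* overlap between the groups after GC correction.

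Levels of different genes were compared as CPM per kilobase of transcript. In WT, *Akt2* was the most abundant of the 10 genes at 52.7 ± 7.59 CPM per kilobase (SD, n = 4), followed by *Tsc2* (21.0 ± 1.18) and *Akt1* (18.3 ± 3.19). *Irs1* (8.62 ± 0.906), *Insr* (8.59 ± 0.449), *Deptor* (7.79 ± 6.70, with 17.8 in WT replicate 4), *Rptor* (6.46 ± 1.92), *Tsc1* (6.38 ± 0.594) and *Mtor* (5.44 ± 0.738) came next, and neighbours among these 6 had overlapping ranges. *Irs2* was lowest at 1.18 ± 0.161. The ranges of neighbours in this order did not overlap between *Akt2* and *Tsc2*, between *Akt1* and *Irs1*, and between *Mtor* and *Irs2*.

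In C2-/- *Akt2* was again first, at 30.1 ± 6.89 CPM per kilobase (SD, n = 3), but *Irs1* was second at 24.2 ± 6.91 with a range that overlapped that of *Akt2*. *Deptor* (12.9 ± 0.96), *Insr* (12.5 ± 0.73), *Tsc2* (11 ± 3.84) and *Akt1* (7.46 ± 0.644) followed. *Mtor* (6.09 ± 1.16), *Tsc1* (6.06 ± 1.43) and *Rptor* (3.06 ± 1.30) came after them, and *Irs2* was last at 0.35 ± 0.259. Neighbours in this order did not overlap between *Irs1* and *Deptor* and between *Rptor* and *Irs2*. The highest mean was 44.7 times the lowest in WT and 86.0 times in C2-/-. These levels carry the GC dependence of each library and were not corrected for it.

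The rest of the pathway was described with a list of 87 genes ordered by role, of which 83 were found. *Irs4*, *Socs1*, *Prr5l* and *Sesn3* were not analysed here. Of the 83, 33 passed (39.8%, against 45.2% of all genes), 9 higher and 24 lower, with a median change of -0.32. All 9 higher genes had a transcript GC content under 50%, and 21 of the 24 lower genes had one of 50% or more. After GC correction 12 passed (14.5%, against 20.6% of all genes), 8 higher and 4 lower, and 11 passed against WT replicate 4 alone (13.3%, against 17% of all genes). The genes that passed both with and without GC correction numbered 7, each with the same direction in both, namely *Sh2b1*, *Pik3ca*, *Gsk3b*, *Slc2a4*, *Rheb*, *Ddit4l* and *Tfeb*.

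The counts by role that follow stand beside 20.2% higher and 25% lower, 45.2% together, of all genes. Next to the receptor, 6 docking and adaptor genes held 1 higher and 2 lower gene, a share close to that of all genes. *Sos1*, the exchange factor that leads to Ras, rose by 1.11 (SE 0.23, limma adjusted p = 0.00426), but it did not pass after GC correction, at 0.13 (limma adjusted p = 0.702), or against WT replicate 4, at 0.84 (limma adjusted p = 0.102). *Sh2b1*, an adaptor that binds the active receptor, fell by 2.57 on the log2 scale (SE 0.41, limma adjusted p = 0.00124), and its GC-corrected change of -0.89 also passed, while that of -2.08 against WT replicate 4 did not (limma adjusted p = 0.0543). Among 9 brakes on the receptor and its signal only *Trib2*, a pseudokinase of the Tribbles family, passed, at -0.82 (SE 0.30, limma adjusted p = 0.0442), and 6 of the 7 fits that left out a library lost it, C2-/- replicate 2 being the exception. Its change was -0.52 without C2-/- replicate 3, -0.68 after GC correction and -1.10 against WT replicate 4, and none of these passed.

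Among 6 PI3K and PDK1 genes, 2 were higher and 1 lower, where 45.2% of all genes passed. *Pik3ca*, the catalytic subunit p110 alpha, had log2 values of 6.30, 6.35, 6.00 and 6.64 in WT and 8.04, 8.31 and 7.64 in C2-/-. All 3 knockouts lay above WT, by 1.68 in the mean (SE 0.21, limma adjusted p = 0.000432), and the change was 0.72 after GC correction (limma adjusted p = 0.0212) and 1.36 against WT replicate 4, where it also passed. *Pik3r2*, a regulatory subunit, fell by 2.59 (SE 0.45, limma adjusted p = 0.00177), and did not pass after GC correction, at -0.77 (limma adjusted p = 0.154), or against WT replicate 4, at -1.87 (limma adjusted p = 0.0691). Of the 6 phosphatase genes that oppose PI3K and Akt, *Ppp2ca*, a catalytic subunit of protein phosphatase 2A, rose by 1.01 (SE 0.17, limma adjusted p = 0.00148), passed against WT replicate 4 at 0.75, and did not pass after GC correction, at 0.44 (limma adjusted p = 0.057). *Inppl1* (SHIP2), a lipid phosphatase, fell by 1.5 (SE 0.25, limma adjusted p = 0.00157), and did not pass after GC correction, at -0.17 (limma adjusted p = 0.483), or against WT replicate 4, at -1.19 (limma adjusted p = 0.0564).

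Downstream of Akt, 10 substrate or effector genes held 1 higher and 3 lower (all genes: 20.2% and 25%). *Slc2a4*, the insulin-responsive glucose transporter GLUT4, fell by 2.09 (SE 0.23, limma adjusted p = 0.000302) and by 0.98 after GC correction (limma adjusted p = 0.00339), and it passed against WT replicate 4 as well. *Gsk3b*, a glycogen synthase kinase, had log2 values of 6.15, 6.26, 6.05 and 6.74 in WT and 7.25, 7.35 and 7.48 in C2-/-. Each knockout lay above each WT library, and the change was 1.06 (SE 0.19, limma adjusted p = 0.0021), or 0.66 after GC correction and 0.62 against WT replicate 4, both of which passed. *Bad*, a pro-apoptotic protein that Akt restrains, fell by 3.01 (SE 0.77, limma adjusted p = 0.0103), with no read in C2-/- replicate 2. Its call was lost after GC correction, at -1.68 (limma adjusted p = 0.0978), and against WT replicate 4, at -2.27 (limma adjusted p = 0.208).

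Among 6 mTOR complex 1 partners, *Rheb*, the GTPase that switches the complex on, had log2 values of 6.46, 6.51, 6.34 and 8.15 in WT and 8.17, 9.27 and 9.05 in C2-/-. WT replicate 4 reached almost the lowest knockout. The change was 1.97 (SE 0.43, limma adjusted p = 0.00499) and 1.71 after GC correction (limma adjusted p = 0.0194), and it was 0.68 and did not pass against WT replicate 4. *Telo2*, which helps assemble mTOR, fell by 3.06 (SE 0.85, limma adjusted p = 0.0148), with no read in C2-/- replicate 2, and by 2.03 without that library. It did not pass after GC correction, at -1.60 (limma adjusted p = 0.139), or against WT replicate 4, at -1.74 (limma adjusted p = 0.34). Of the 4 mTOR complex 2 partners none passed in limma on all 7 libraries, with 0 also at an unadjusted p under 0.05, and limma-voom on reads called 0 with 1 at an unadjusted p under 0.05. *Prr5* had the largest change of them, -1.78 (SE 0.82, limma adjusted p = 0.0965), and no read in C2-/- replicate 2. It was -0.82 without that library, 0.01 after GC correction and -1.28 against WT replicate 4. It passed without C2-/- replicate 3, at -2.59 (limma adjusted p = 0.0242), and with reads thinned to the smallest library, at -2.25 (limma adjusted p = 0.043).

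The amino acid arm, which brings mTOR complex 1 to the lysosome, held 23 genes with 1 higher and 8 lower, where 20.2% of all genes were higher and 25% lower. *Fnip1*, a folliculin partner, rose by 1.13 (SE 0.28, limma adjusted p = 0.00982), but was -0.07 after GC correction and 0.44 against WT replicate 4, without passing. *Nprl3*, a subunit of the inhibitory GATOR1 complex, fell by 2.11 (SE 0.52, limma adjusted p = 0.00914), and its changes of -1.34 after GC correction and -1.77 against WT replicate 4 did not pass. No gene of this arm passed in limma after GC correction, where 1 higher and 3 lower had an unadjusted p under 0.05. Of the 2 stress-induced inhibitors, *Ddit4l* (REDD2) fell by 0.59 (SE 0.15, limma adjusted p = 0.0108), close to the fold minimum, by 0.95 after GC correction and by 0.76 against WT replicate 4, where it passed. Leaving out WT replicate 1, 2 or 4 or C2-/- replicate 1 brought it under that minimum.

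The 11 outputs of mTOR complex 1 held 2 higher and 5 lower genes (all genes: 20.2% and 25%). *Rps6kb1*, the S6 kinase, rose by 1.36 (SE 0.19, limma adjusted p = 0.000696), passed against WT replicate 4 at 1.04, and did not pass after GC correction, at 0.19 (limma adjusted p = 0.378). *Tfeb*, a lysosomal transcription factor that the complex keeps out of the nucleus, had log2 values of 6.56, 6.47, 6.62 and 5.79 in WT and 3.97, 3.77 and 3.17 in C2-/-. The gap between the groups exceeded 1 log2 unit. It fell by 2.72 (SE 0.27, limma adjusted p = 0.000251) and by 0.76 after GC correction (limma adjusted p = 0.0471), and it passed against WT replicate 4, at -2.15.

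**Figure D5:**
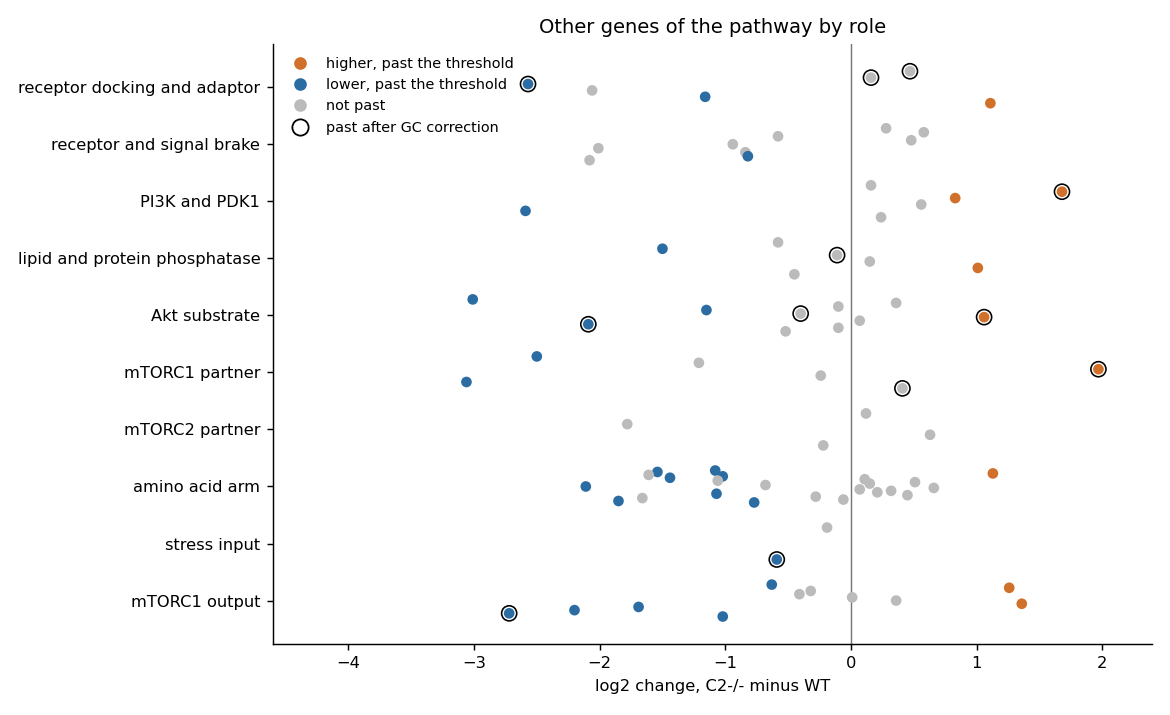
Log2 change (C2-/- minus WT) of the 83 further pathway genes by role, 1 point per gene, orange and blue where the gene passed the threshold higher or lower, grey where it did not, with a ring where it passed after GC correction. Higher and lower genes occur side by side in most roles, the amino acid arm holds 8 lower and 1 higher gene of 23 (all genes: 25% lower, 20.2% higher) and no ring, and the mTORC2 partners are all grey.

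The tissue label fitted the markers of skeletal muscle fibre, whose 7 genes summed to 189000 to 216000 CPM in WT. They summed to 112000 to 129000 in C2-/-, with 4 of the 7 lower (*Acta1*, *Ckm*, *Pvalb* and *Atp2a1*) and none higher. All marker counts stand beside 20.2% higher and 25% lower, 45.2% together, of all genes. The sums and calls of markers carry the GC dependence of each library and were not corrected for it. Markers of other cells were summed in the same way. The 5 fibroblast markers summed to 356 to 545 CPM in WT and 1280 to 1440 in C2-/- (4 higher). The 5 macrophage markers summed to 18.9 to 36.4 in WT and 46.8 to 68.5 in C2-/- (2 higher). The 3 adipocyte markers found summed to 157 to 360 in WT and 466 to 632 in C2-/- (1 higher, *Fabp4*). That sum was almost all *Fabp4*, with 1486 to 2578 reads per library. *Adipoq* and *Plin1* had 1 to 25 reads and did not pass. Endothelial markers summed to 285 to 463 in WT and 249 to 327 in C2-/- (1 of 5 lower). Schwann cell markers summed to 32.8 to 73.4 in WT and 32.5 to 57.3 in C2-/- (1 of 4 lower). For these cell types the ranges of the groups overlapped. The 2 satellite cell markers found summed to 0.683 to 2.73 in WT and 3.73 to 4.47 in C2-/- (*Myf5* higher, on 1 to 20 reads), and the red blood cell marker *Alas2* stood at 4.10 to 5.15 and 1.03 to 2.06 (lower). *Pax7* had no read in C2-/- replicate 3. The part of these markers in the changes of the core genes was not tested.

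Over the 7 libraries, the genes whose centred log2 values ran closest to those of *Irs1* were *Rpl36a*, *Rpain* and *Fbxo33*, with root mean square differences of 0.121, 0.133 and 0.138. Those closest to *Irs2* were *Robo4*, *Gstt2* and *Plekhg5*, at 0.136, 0.199 and 0.221. In each of these last 3 genes C2-/- replicate 2 was the lowest library, as it was for *Irs2*, with 5, 1 and 3 reads.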

How the data were processed

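RNA of TA muscle from 4 WT and 3 C2-/- mice was sequenced after oligo(dT) selection. According to the submitters' processing notes, the authors aligned reads with HISAT to GRCm38.p6, counted them per gene with featureCounts 1.5.2 and scaled them with edgeR's TMM factors. The authors deposited log2 CPM for 12239 genes in 7 columns. The gene filter, and whether multiply mapped reads were kept or strand was used, are not given in the sources used here. A second deposited table held the authors' own fold changes and p-values and was not used.

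All deposited log2 values traced back to whole reads (0.5 added, divided by the effective library size, times 1e6), so reads were recovered (100% of values whole within 0.001 reads). A count of 3 reads stood at 0.195 to 1.12 CPM, and such a floor covers counting error only. The main test was limma 3.58.1 (R 4.3.3), with lmFit and eBayes with trend on the deposited values, genotype as the only term, two-sided, and Benjamini-Hochberg adjustment over all genes. Because 0.5 reads were added before the log, falls to few reads are understated. The script was tested on simulated data. GC content came from 1 GENCODE vM21 transcript per gene (GRCm38, the authors' build), and the correction replaced a natural spline with 5 degrees of freedom in each library by the mean curve. In the comparison with WT replicate 4, depth (3 deep libraries against the rest) was a term in the fit. Promoters came from RefSeq (GRCm38.p6). Alternatives were other scalings, filters, a prior count of 2, limma-voom on reads, thinning to 2613277 reads, library weights, a replicate block, stricter thresholds and leaving out each library. The genes, lists and tests were chosen with earlier results of these data known. Named genes were the 10 core genes, genes of the pathway list, any of which could be named and of which those with the largest rise and fall past the threshold in each role (otherwise the largest change) always were, and the 3 genes nearest to the core genes with the highest and the lowest change. Cell type markers were listed by type. Some genes of the pathway are not reported here.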

Additional observations from a re-analysis of the deposited data

Results flagged for a closer look

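Values were compared with the rest of the WT group by Dixon's ratio, the gap of the highest or lowest of 4 samples to its neighbour over the whole range. The values tested were those of the 10 core genes, *Mybpc2*, 17 pathway genes, the 5 within-library differences and the reads per library. The 17 were those with the largest rise and fall past the threshold in each role, otherwise the largest change, and *Slc2a4* was not among them. Of these 34 values, 9 exceeded the 95% critical value, where chance gives about 1 in 20 (1.7 here), and 8 of the 9 belonged to WT replicate 4. For the mTOR genes these were *Mtor* (log2 value of 5.22 against 5.63 to 5.64 in the other WT libraries), *Rptor* (4.57 against 5.58 to 5.64) and *Deptor* (7.25 against 5.16 to 5.31). Among these 17 pathway genes they were *Rheb* (8.15 against 6.34 to 6.51) and *Telo2* (1.39 against 3.06 to 3.28). Over all 83 genes of the pathway list 12 exceeded it, all 12 in WT replicate 4. The within-library differences *Rptor* minus *Mtor* (-0.65 against -0.05 to 0.00) and *Deptor* minus *Mtor* (2.04 against -0.48 to -0.33) stood apart in the same library, as did its 4683853 reads against 14929214 to 15464499. The remaining value was *Tsc2* minus *Tsc1* in WT replicate 2, 1.27 against 1.47 to 1.49. What sets WT replicate 4 apart was not tested. For *Rptor*, *Telo2* and *Rheb* it lay on the side of the C2-/- libraries, and for *Deptor* it lay beyond them.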

How the results depend on the processing

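Of the 10 core genes, *Irs1* kept its direction and its side of the threshold under all 16 alternatives and 7 fits without a library, as did *Mybpc2*, *Pik3ca*, *Gsk3b*, *Slc2a4* and *Tfeb*. The low-value filter at a mean log2 of 3 left out *Irs2*. GC correction gave 2504 genes past the threshold (1491 higher, 1013 lower) in place of 5528, 2 core genes (2 higher, 0 lower) and 12 of the list (4 lower). Correction with WT replicate 4 left out gave 3125 (1186 lower), 3 core genes (3 higher, 0 lower) and 14 of the list (4 lower). Comparison with WT replicate 4, added after the data were seen like the previous fit, gave 2078 (1068 higher, 1010 lower), 2 core genes (1 lower) and 11 of the list (5 higher, 6 lower). An adjusted p under 0.01 gave 3216 (1456 higher, 1760 lower) and 3 lower core genes. Higher core genes numbered 2 with median centring, thinning and no fold minimum, where *Insr* joined *Irs1*, and with voom and library weights, where *Deptor* did.

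With GC correction alone, with the block, and without WT replicate 4, the sign turned for *Akt1* (0.39, 0.38, 0.38), *Akt2* (0.25, 0.24, 0.24), *Rptor* (0.17, 0.01, 0.01) and *Tsc1* (0.36, 0.35, 0.35), in the latter pair of fits for *Tsc2* (0.02, 0.02), and in the first for *Fnip1* (-0.07) and *Prr5* (0.01). Against WT replicate 4 it turned for *Deptor* (-0.47) and *Tsc1* (0.08), with median centring for *Tsc1* (0.06), and without a C2-/- library for *Tsc1* (0.11, range over libraries left out -0.24 to 0.11). Apart from these turns, the call was lost under 8 of the alternatives and left-out libraries for *Rptor*, 7 for *Irs2*, 2 for *Tsc2* and 1 for *Akt2*. The causes were not tested.

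For the pairs, GC correction gave -0.14 (*Akt2* minus *Akt1*), -2.47 (*Irs2* minus *Irs1*), -0.38 (*Tsc2* minus *Tsc1*), -0.88 (*Rptor* minus *Mtor*) and -0.62 (*Deptor* minus *Mtor*). Thinning gave 0.53, -3.22, -0.91 and -1.55 for the first 4, whose p adjusted over the 5 pairs rose over 0.05. The exact permutation p itself stayed at 0.0286 for *Irs2* minus *Irs1* and *Rptor* minus *Mtor*. It was 0.0571 for *Akt2* minus *Akt1* and *Tsc2* minus *Tsc1*. WT replicate 4 alone gave -0.78 and -0.94 for the last 2.

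Leaving out a library gave 4095 to 6136 genes (1896 to 2876 higher, 2193 to 3260 lower), 4 to 7 core genes (1 to 2 higher, 3 to 5 lower) and 28 to 38 of the list (8 to 11 higher, 20 to 27 lower). The pairs ranged from 0.34 to 0.53, -3.96 to -2.78, -1.27 to -0.43, -1.43 to -1.14 and 0.65 to 1.49.

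Replicate numbers did not pair the samples, since same-numbered libraries had correlations of 0.05, -0.06 and -0.05. The replicate block gave 2 higher core genes, and with GC correction 2914 genes (1117 lower), 3 core genes (3 higher, 0 lower) and 15 of the list (4 lower). WT replicate 4 has no partner in the block. At a depth of 2613277 reads, genes such as *Irs2* rest on few reads.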
